A study of Homo sapiens with 6 samples.

Results

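The genes described here encode cell-surface receptors of the G protein-coupled family, with the orphan and adhesion receptors as the largest groups. They were taken by name alone: protein-coding genes called GPR with a number, GPRC5A to GPRC5D, ADGR (adhesion receptors), and the receptors for adenosine (ADORA), adrenaline, lysophospholipids (LPAR, S1PR), prostaglandin E2 (PTGER), proteases (F2R, F2RL), nucleotides (P2RY), oxytocin (OXTR), endothelin (EDNR) and bradykinin (BDKRB). The rule found 82 genes among 22794 listed genes, of which 14221 are protein coding. It is wider than its working name, since it also takes whole families with well-known ligands, and 5 genes with a GPR symbol (GPR107, GPR108, GPR137, GPR155 and GPR180) encode membrane proteins that are not classical receptors. The RNA came from CAL-51, a human breast carcinoma cell line. A plasmid carrying p27-mVenus, a fluorescent reporter of the cyclin-dependent kinase inhibitor p27, had been transfected into the cells before they were sorted, and p27-negative cells may include cells that did not take it up. There were 3 libraries of p27-positive cells and 3 libraries of p27-negative cells, and the labels name no other treatment, genotype or time. Mock-transfected cells are not analysed here, so reporter uptake and p27 state cannot be told apart. The comparison asks which receptor transcripts go with a high reporter signal. Nothing in the labels states that libraries came from separate cultures, so p-values reflect the spread between the libraries alone, which may be technical.

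G protein-coupled receptors span the membrane with a bundle of helices and pass a signal to a heterotrimeric G protein inside the cell. Gs raises cyclic AMP through adenylyl cyclase, Gi lowers it, and Gq acts through phospholipase C beta. An orphan receptor is one without an agreed natural ligand. Adhesion receptors carry a long extracellular region that binds neighbouring cells or matrix and is cut near the membrane. In epithelial and tumour cells, receptors of these families are known to act on migration, contact, growth and the Hippo pathway. RGS proteins speed the shut-off of G proteins, and receptor kinases with arrestins silence the receptors themselves.

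Promoter sequence was available from RefSeq (build GRCh38.p14; 250 bases before to 50 bases after the gene's start) for 58 of the 82 genes. It was searched on both strands for 4 motifs. They were TGACGTCA, the cyclic AMP response element through which CREB acts, TGANTCA, the AP-1 site, GGAATG, the TEAD box, and TTTGAA, the CHR box found in cell cycle genes. The 2 motifs that lie downstream of receptor signalling through cyclic AMP and protein kinase C were in 4 of these promoters, 3 of them of genes called higher and 1 of a gene called lower in the test below. Of all 58 genes with a promoter, 15 were called higher and 7 lower. The 4 promoters are shown 5′ to 3′ on the gene's strand, with the cyclic AMP response element and the AP-1 site in capitals.
GPR3: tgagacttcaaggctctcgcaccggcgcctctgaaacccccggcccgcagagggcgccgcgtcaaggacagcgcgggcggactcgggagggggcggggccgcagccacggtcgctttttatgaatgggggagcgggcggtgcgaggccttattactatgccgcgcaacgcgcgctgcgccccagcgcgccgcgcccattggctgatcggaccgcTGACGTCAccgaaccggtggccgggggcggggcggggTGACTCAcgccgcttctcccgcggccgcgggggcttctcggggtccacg
S1PR2: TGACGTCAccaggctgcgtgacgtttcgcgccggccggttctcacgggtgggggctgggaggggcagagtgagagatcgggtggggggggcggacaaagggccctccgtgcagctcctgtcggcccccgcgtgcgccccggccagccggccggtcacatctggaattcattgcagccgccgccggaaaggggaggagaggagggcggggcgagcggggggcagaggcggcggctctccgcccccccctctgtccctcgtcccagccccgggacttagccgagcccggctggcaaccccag
F2RL2: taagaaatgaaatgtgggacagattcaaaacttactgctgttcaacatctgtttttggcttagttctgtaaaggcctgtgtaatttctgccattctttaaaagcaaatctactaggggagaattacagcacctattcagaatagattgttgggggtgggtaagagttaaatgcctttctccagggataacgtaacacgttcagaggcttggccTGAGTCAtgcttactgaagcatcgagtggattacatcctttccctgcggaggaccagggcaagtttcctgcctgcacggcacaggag
LPAR2: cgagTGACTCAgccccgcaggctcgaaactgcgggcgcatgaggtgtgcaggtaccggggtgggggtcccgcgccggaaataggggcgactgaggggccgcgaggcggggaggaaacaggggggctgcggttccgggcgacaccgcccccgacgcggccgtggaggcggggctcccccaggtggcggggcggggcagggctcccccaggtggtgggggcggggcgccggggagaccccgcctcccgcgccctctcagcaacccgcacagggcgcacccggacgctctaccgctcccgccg
The GPR3 promoter (chr1:27392372-27392671, plus strand) holds the cyclic AMP response element with its first base at -36 from the start and an AP-1 site with its first base at 2. The S1PR2 promoter (chr19:10231282-10231581, minus strand) holds the cyclic AMP response element at -250. AP-1 sites begin at -37 in the F2RL2 promoter (chr5:76623354-76623653, minus strand) and at -246 in the LPAR2 promoter (chr19:19628171-19628470, minus strand). The start RefSeq gives for LPAR2 lies inside the gene's span in the deposited tables (chr19:19623655-19628930).

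Matches to these letters were not frequent among the receptors. The cyclic AMP response element was in 2 of 58 receptor promoters (3.45%), against 540 of all 27305 promoters (1.98%). The AP-1 site was in 3 of 58 (5.17%) against 2120 (7.76%). The TEAD box was in 8 of 58 (13.8%) against 3836 (14%), and the CHR box was in 4 of 58 (6.9%) against 4212 (15.4%). GPR3 is a gene that was lower in p27-positive cells, whereas S1PR2, F2RL2 and LPAR2 were higher, so both directions occur among the 4 promoters. A match is a description of the letters and says nothing about binding.

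Read totals were 23297719 to 26735554 in p27-positive and 22216934 to 28609257 in p27-negative libraries. Principal component 1 (55.2% of the variance) ran between the groups, and component 2 (14.4%) set p27-negative replicate 3 apart, at 53.9, from p27-negative replicates 1 (-28.6) and 2 (-24.5). Keratin transcripts of an epithelial cell were abundant, at 544 FPKM for KRT8 in p27-positive and 327 FPKM in p27-negative cells. Of 4 tested epithelial markers KRT8, KRT18 and KRT19 were called higher and EPCAM lower (-0.30, adjusted p = 0.016). Of 3 tested mesenchymal-like markers VIM (-0.24) and ZEB1 (-0.44) were called lower, and FN1 was not called (0.65, adjusted p = 0.23). CDH2, also mesenchymal-like, had 27 reads in p27-positive cells and 23 in p27-negative cells. CDH1, the epithelial cadherin, had 15 reads in p27-positive cells and 0 in p27-negative cells, and the luminal factor GATA3 had 14 in p27-positive cells and 12 in p27-negative cells. Of the 2 tested hormone receptor and luminal markers ERBB2 was called higher (0.34, adjusted p = 4.4e-08). The other, FOXA1, was not called (0.68, adjusted p = 0.074). ESR1 had 39 reads in p27-positive cells, against 8 in p27-negative cells. Endothelial and stromal markers summed to 29.0 to 30.8 FPKM in p27-positive and 16.9 to 17.3 FPKM in p27-negative libraries, with 5 of 6 tested and all 5 higher, while the defining endothelial marker PECAM1 had 11 reads in p27-positive cells, against 10 in p27-negative cells. Leukocyte markers summed to 0.566 to 1.01 FPKM in p27-positive and 0.271 to 0.606 FPKM in p27-negative libraries, with 1 of 2 tested markers higher. The part of these markers in the receptor results was not tested. In RNA from sorted populations, fewer cells that use a gene and less RNA of it per cell cannot be told apart.

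Receptor genes took a larger share of the reads in p27-positive cells. The share was 0.230%, 0.233% and 0.234% in the 3 p27-positive libraries, against 0.185%, 0.183% and 0.182% in the 3 p27-negative libraries. All 3 p27-positive libraries were therefore above all 3 p27-negative libraries. The number of the 82 genes with at least 1 read was 74, 77 and 79 in p27-positive libraries, against 70, 70 and 66 in p27-negative libraries. This count was not made over all listed genes, so it is not a trait of the receptors. Among all 6844 genes averaging under 10 normalized counts, all p27-positive libraries lay above in 11.4% and all p27-negative libraries in 3.45%. Summed over the 82 genes, the level per length was 295 FPKM in p27-positive and 228 FPKM in p27-negative cells (means of 3 libraries each).

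A test was run on the 55 receptor genes whose normalized counts averaged 10 or more, within a limma fit over all 15950 genes above that minimum. Log2 fold changes, given ± SE, subtract p27-negative from p27-positive values of log2(normalized count + 1), and a gene is called at a Benjamini-Hochberg adjusted p under 0.05. Of the 55 genes, 24 rose (43.6%), 7 fell (12.7%) and 24 were not called. Over all tested genes 25.5% were called higher and 27.1% lower, 52.6% in all. By size, 10 receptors (18.2%) were called and at least 2-fold higher, against 9.3% of all tested genes, and 2 (3.64%) were at least 2-fold lower, against 2.9%. All 3 p27-positive libraries lay above all 3 p27-negative libraries in 24 receptors, against 28.5% of all tested genes, and all p27-negative libraries lay above in 6, against 29.1%. The median log2 fold change was 0.34 over the 55 receptors and 0.03 over all tested genes. A receptor can pass the minimum through its level in a single group, which favours receptors that differ. These counts therefore describe the tested receptors and not all 82.

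**Figure D1:**
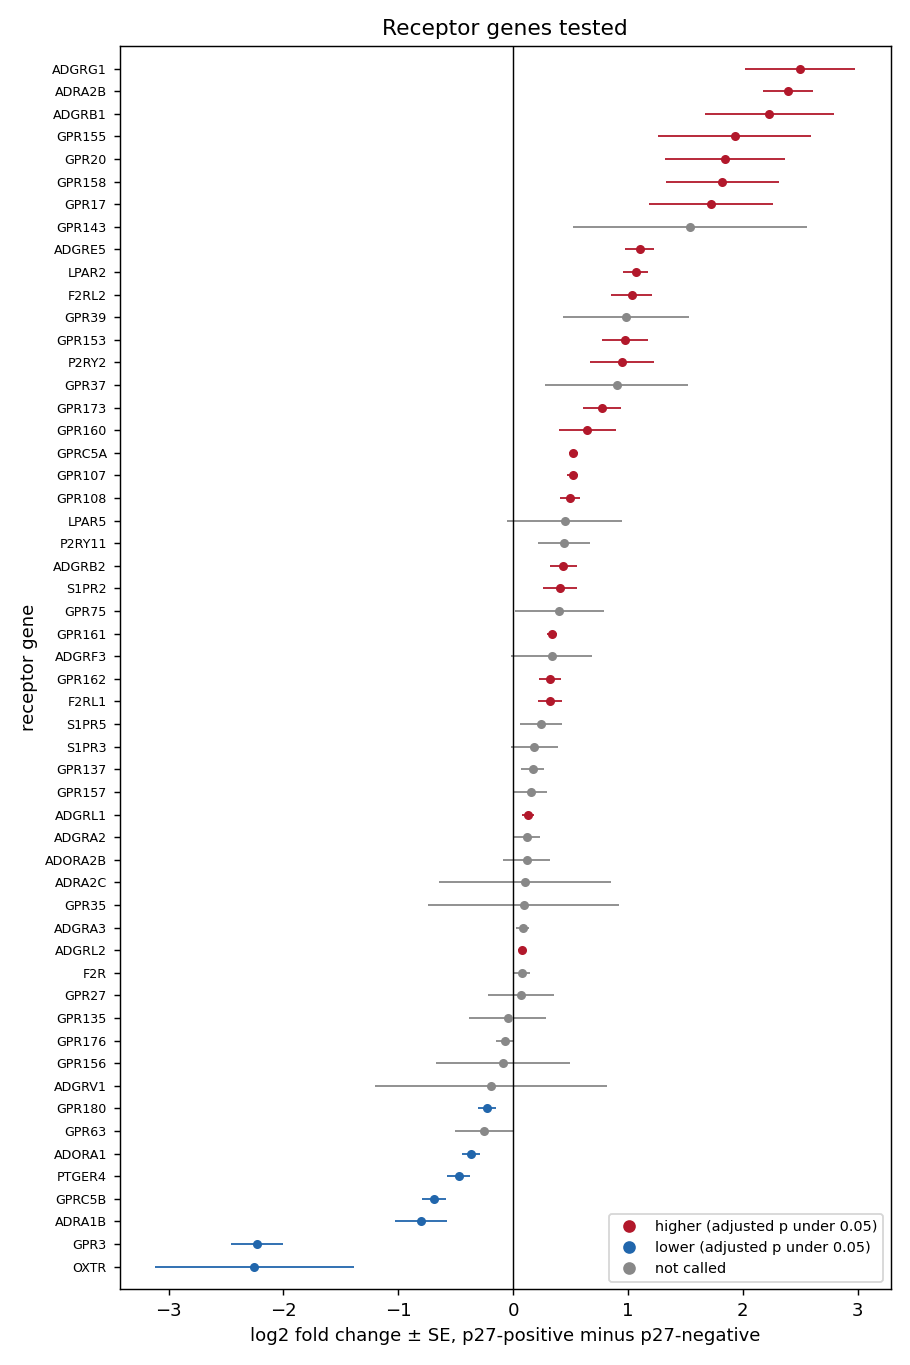
Log2 fold change (p27-positive minus p27-negative) of 54 of the tested receptor genes, as points with bars for 1 SE over 3 libraries per group. Of these, 24 are called higher (red), 7 lower (blue) and 23 are not called (grey).

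The calls depended on how strongly a gene was expressed, and the receptors were set beside all tested genes of like level. At 500 normalized counts or more on average, 10 of 19 receptors rose (52.6%) and 4 fell (21.1%), against 25% and 47% of 7882 genes. Between 50 and 500 normalized counts, 9 of 21 receptors rose (42.9%) and 2 fell (9.52%), against 34.2% and 12.6% of 4231 genes. Between 10 and 50, 5 of 15 receptors rose (33.3%) and 1 fell (6.67%), against 17% and 2.16% of 3837 genes. In this lowest range a gene can reach the minimum through its level in a single group, which favours genes that differ without forcing a call. GPR143, at 18.0 in p27-positive and 7.11 in p27-negative cells, was such a gene and was not called. By percentage called, the widest gap between receptors and all genes was thus among the strongly expressed ones. By median log2 fold change it was in the lowest range, at 0.98 for receptors against 0.40 for all genes. The medians were 0.40 against 0.20 between 50 and 500, and 0.13 against -0.13 at 500 or more.

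**Figure D2:**
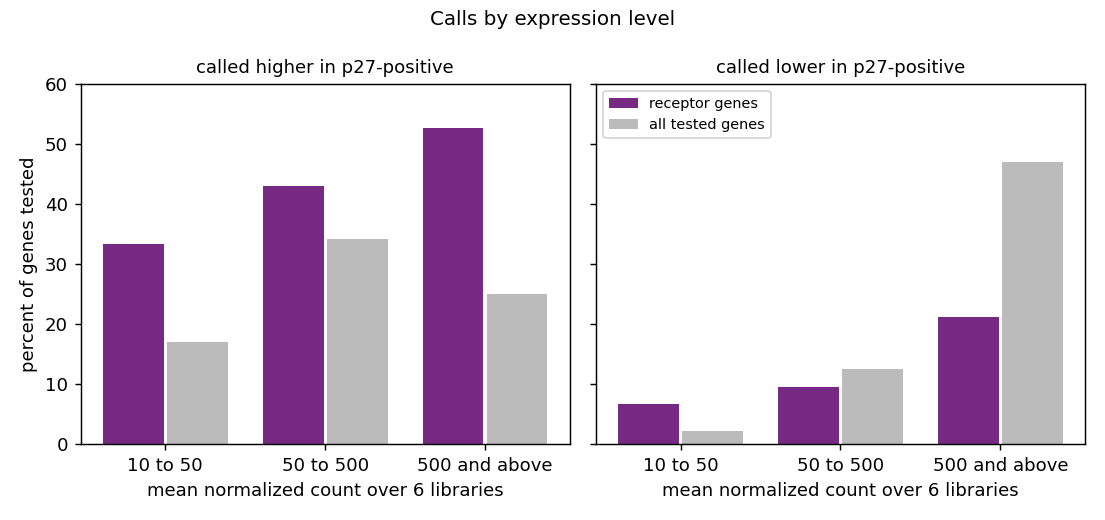
Percentage of tested genes called higher (left) and lower (right) in p27-positive cells by mean normalized count over 6 libraries, for receptor genes (purple) and all tested genes (grey). At 500 and above, 52.6% of receptors and 25% of all tested genes are called higher.

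Adhesion receptors were called in 1 direction only under each scaling tried. Of 15 genes, 10 were tested, 6 rose (60%) and none fell. The shares over all tested genes were 25.5% higher and 27.1% lower. The largest change was in ADGRG1 (GPR56; chr16:57610652-57665580), a collagen- and transglutaminase-binding receptor that couples to G12 and G13. It had 77.4, 69.1 and 59.9 normalized counts in p27-positive libraries, against 7.12, 13.4 and 14.8 in p27-negative libraries. The groups lay far apart, and the log2 fold change was 2.50 ± 0.48 (adjusted p = 2.6e-05), from 218 reads in p27-positive cells, against 33 in p27-negative cells. ADGRE5 (CD97; chr19:14380501-14408725), a receptor for CD55 that is widely expressed in carcinoma and immune cells, had 526, 508 and 584 normalized counts in p27-positive libraries, against 248, 236 and 268 in p27-negative libraries. Its libraries were tight within each group, and the log2 fold change was 1.10 ± 0.13 (adjusted p = 1.5e-09).

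The brain angiogenesis inhibitor receptors and the latrophilins made up the rest. ADGRB1 (BAI1), which recognises phosphatidylserine on dying cells, had 50.3, 70.0 and 28.7 normalized counts in p27-positive libraries, against 12.5, 6.68 and 9.13 in p27-negative libraries (log2 fold change 2.23 ± 0.56, adjusted p = 0.00087). The p27-positive libraries were spread widely but all lay above. ADGRB1 averaged 9.42 normalized counts in p27-negative cells, so it reached the minimum of 10 through its p27-positive level alone. Its relative ADGRB2 had 517, 600.5 and 639 in p27-positive libraries, against 522, 396 and 385 in p27-negative libraries, so the groups overlapped (0.44 ± 0.12, adjusted p = 0.0022). The call on ADGRB2 was lost without the trended prior (adjusted p = 0.071).

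The latrophilins, which bind teneurins and FLRT proteins at cell contacts, were strongly expressed and moved little. ADGRL2 had 16752, 16246 and 16078 normalized counts in p27-positive libraries, against 15852, 15516 and 15266 in p27-negative libraries (0.07 ± 0.03, adjusted p = 0.040). ADGRL1 had 2946, 3038 and 2953 in p27-positive libraries, against 2581, 2665 and 2922 in p27-negative libraries (0.13 ± 0.05, adjusted p = 0.039). Neither pair of groups overlapped, but the calls were marginal: leaving out p27-positive replicate 1 ended both, with an adjusted p of 0.15 for ADGRL2 and 0.060 for ADGRL1, and 3 further left-out libraries ended the call of ADGRL2 and 4 that of ADGRL1. ADGRA3, an adhesion receptor with no agreed ligand, was not called. It had 2615, 2828 and 2938 in p27-positive libraries, against 2688, 2531 and 2694 in p27-negative libraries (0.08 ± 0.06, adjusted p = 0.22), and 4 other scalings called it higher, at 0.19 to 0.23. The remaining tested adhesion receptors ADGRA2, ADGRF3 and ADGRV1 had log2 fold changes of 0.12, 0.34 and -0.19 with adjusted p of 0.38 or more.

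The GPRC5 receptors, which are induced by retinoic acid, went in opposite directions. GPRC5A (RAI3; chr12:12890782-12917937), described as a tumour suppressor in mouse lung, had the highest level per length of all 82 genes, at 35.2 ± 0.41 FPKM in p27-positive and 22.3 ± 1.0 FPKM in p27-negative cells (SD, n = 3 each). It had 7045, 6786 and 6850 normalized counts in p27-positive libraries, against 4625, 5043 and 4716 in p27-negative libraries. That rise of 0.52 ± 0.04 on the log2 scale had the smallest adjusted p of the receptors (7.3e-14). GPRC5B (chr16:19856691-19886167), known for its part in insulin and inflammatory signalling in adipose tissue of the mouse, had 521, 536 and 577 normalized counts in p27-positive libraries, against 810, 1056 and 795 in p27-negative libraries. It fell by 0.69 on the log2 scale (SE 0.10, adjusted p = 3e-07), with p27-negative replicate 2 the highest. GPRC5B overlaps IQCK on the opposite strand, which also fell (-0.67, adjusted p = 0.022).

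GPR3 (chr1:27392622-27395814), whose promoter is shown above, was the most strongly lower receptor among those averaging 50 or more normalized counts. GPR3 activates Gs without added ligand and is known for holding mouse oocytes in meiotic arrest through cyclic AMP. It had 59.3, 54.7 and 52.1 normalized counts in p27-positive libraries, against 294.5, 267 and 232 in p27-negative libraries. The 2 groups were far apart and each was tight, with 176 reads in p27-positive cells and 774 reads in p27-negative cells. The log2 fold change was -2.23 ± 0.23 (adjusted p = 4.3e-11), or 4.69-fold lower.

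Among the other orphan GPR receptors 14 of 21 were tested, 6 rose (42.9%) and none fell, against 25.5% and 27.1% of all tested genes. Quantile normalization called 5 of the 14 higher and 1 lower. GPR161, a receptor of the primary cilium that holds Hedgehog signalling in check through Gs, was the most strongly expressed of them, at 19.1 FPKM in p27-positive and 13.8 FPKM in p27-negative cells. It had 5079, 5026 and 5119 normalized counts in p27-positive libraries, against 4175, 3949 and 3914 in p27-negative libraries (0.34 ± 0.04, adjusted p = 2.2e-08). Both groups were tight and lay apart. GPR153, an orphan close to GPR162, had 210, 233 and 212 normalized counts in p27-positive libraries, against 103, 127 and 103 in p27-negative libraries (0.98 ± 0.20, adjusted p = 6.4e-05). GPR173, a conserved orphan of the SREB group of brain receptors, had 293, 310 and 293.5 in p27-positive libraries, against 152, 187 and 185 in p27-negative libraries (0.78 ± 0.16, adjusted p = 0.00010). Neither GPR153 nor GPR173 had overlapping groups.

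Of the remaining called orphans, GPR160 was the least certain. GPR20, a receptor marking the interstitial cells of Cajal and their tumours, had 50.3, 47.0 and 42.5 normalized counts in p27-positive libraries, against 16.9, 6.68 and 16.0 in p27-negative libraries (1.84 ± 0.52, adjusted p = 0.0029). GPR160 had 122, 155 and 195 in p27-positive libraries, against 102, 133.5 and 69.6 in p27-negative libraries (0.65 ± 0.25, adjusted p = 0.025). The groups of GPR160 overlapped, and without p27-negative replicate 3 its change was 0.40 (adjusted p = 0.17). The call on GPR160 was also lost without p27-positive replicate 2 (adjusted p = 0.069) or 3 (0.17), with quantile normalization (0.30 on the log2 scale, adjusted p = 0.33), in the FPKM table (0.072) and without the trended prior (0.14). GPR162 had 676, 781 and 751 in p27-positive libraries, against 603, 600 and 560.5 in p27-negative libraries (0.32 ± 0.10, adjusted p = 0.0052). GPR162 shares its strand with the overlapping gene P3H3, which fell (-0.50, adjusted p = 4.2e-07), and how the authors' counting split such reads is not given in the sources used here.

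Class C receptors have a large outer domain, and GPR158, a neuronal glycine receptor that binds RGS7, was 1 of 2 tested. GPR158 (chr10:25174802-25602229) had 70.4, 73.9 and 77.3 normalized counts in p27-positive libraries, against 5.34, 47.9 and 29.7 in p27-negative libraries (1.82 ± 0.49, adjusted p = 0.0018). The p27-positive libraries were alike and the p27-negative ones were not: without p27-negative replicate 1 the change in GPR158 was 0.95 (adjusted p = 0.032), and the call was lost without the trended prior (adjusted p = 0.12). GPR17, a receptor of the oligodendrocyte lineage placed here with lipid and metabolite receptors, had 39.2, 47.0 and 38.2 in p27-positive libraries, against 8.01, 11.1 and 18.3 in p27-negative libraries (1.72 ± 0.54, adjusted p = 0.0066). Its groups did not overlap. GPR39, the zinc receptor, had 124 reads in p27-positive cells and 52 reads in p27-negative cells and was not called (0.98 ± 0.55, adjusted p = 0.14). With single libraries left out GPR39 was at 0.57 to 1.53, and it was called without p27-positive replicate 2 (adjusted p = 0.027).

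Of the 5 GPR-named proteins that are not classical receptors, 3 rose (60%) and 1 fell (20%), against 25.5% and 27.1% of all tested genes. GPR107 (chr9:130053426-130140169), a protein of the Golgi and endosomes needed by some toxins to enter cells, had 4433, 4298 and 4484 normalized counts in p27-positive libraries, against 3044, 3054 and 3134 in p27-negative libraries (0.52 ± 0.05, adjusted p = 2.5e-12). Its relative GPR108, an endosomal protein needed for entry of adeno-associated virus, had 1018, 1060 and 1056 in p27-positive libraries, against 815, 662 and 753 in p27-negative libraries (0.49 ± 0.09, adjusted p = 7.2e-06). Both relatives had p27-positive libraries wholly above the p27-negative ones. GPR108 shares its strand with the overlapping complement gene C3, which also rose (1.39, adjusted p = 3.2e-08).

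GPR155, a lysosomal cholesterol sensor, had 36.2, 23.0 and 33.0 normalized counts in p27-positive libraries, against 15.1, 3.34 and 6.85 in p27-negative libraries (1.93 ± 0.67, adjusted p = 0.014). GPR155 averaged 8.44 in p27-negative cells, so it reached the minimum of 10 through its p27-positive level alone. It rested on 98 reads in p27-positive cells, against 26 in p27-negative cells, and quantile normalization ended the call (adjusted p = 0.073), as did leaving out p27-positive replicate 1 (0.070), p27-positive replicate 3 (0.061) or p27-negative replicate 2 (0.051). GPR180 had 1247, 1249 and 1125 in p27-positive libraries, against 1531, 1449 and 1268 in p27-negative libraries (-0.23 ± 0.08, adjusted p = 0.011). The groups of GPR180 did not overlap, but all 4 other scalings ended the call, at -0.10 to -0.12, as did leaving out p27-positive replicate 3 (adjusted p = 0.079) or p27-negative replicate 1 (0.094).

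**Figure D3:**
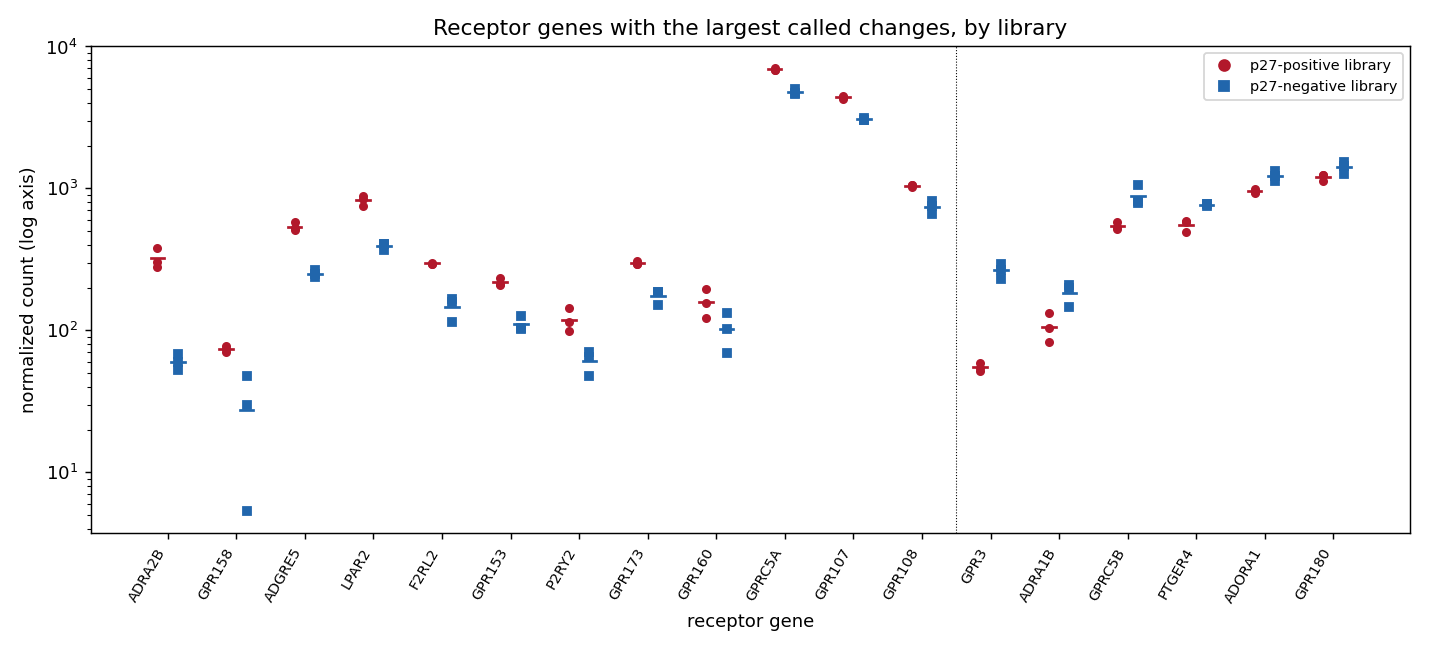
Normalized counts (log axis) in each library for the called receptor genes that average 50 or more, higher left of the dotted line and lower right of it, with p27-positive libraries as red circles, p27-negative libraries as blue squares and short bars for means. ADRA2B and GPR3 lie far apart between groups, whereas the groups of GPR160 overlap.

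Lysophospholipid receptors answer lysophosphatidic acid (LPAR) or sphingosine-1-phosphate (S1PR). Of 5 tested ones 2 rose (40%) and none fell, against 25.5% and 27.1% of all tested genes. LPAR2 (chr19:19623655-19628930), which couples to Gi, Gq and G12/13, had 846, 749 and 886 normalized counts in p27-positive libraries, against 404, 371 and 407.5 in p27-negative libraries. This separation was a log2 fold change of 1.07 ± 0.10 (adjusted p = 2.1e-11), from 11.96 FPKM in p27-positive and 5.21 FPKM in p27-negative cells. S1PR2, which couples mainly to G12/13 and restrains migration, had 301, 302 and 382 in p27-positive libraries, against 248, 235 and 255 in p27-negative libraries (0.41 ± 0.15, adjusted p = 0.020). The call on S1PR2 was lost with quantile normalization (adjusted p = 0.17), without p27-positive replicate 3 (0.16) and without p27-negative replicate 2 (0.056). S1PR2 overlaps DNMT1 on the same strand, and DNMT1, the maintenance DNA methyltransferase, fell by 1.08 on the log2 scale (adjusted p = 2.3e-25). LPAR5, S1PR3 and S1PR5 had log2 fold changes of 0.45, 0.18 and 0.24 with adjusted p of 0.28 or more.

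The adrenergic receptors held calls in both directions, as did all tested genes (25.5% higher and 27.1% lower). ADRA2B (chr2:96112876-96116571), a Gi-coupled alpha-2 receptor for adrenaline and noradrenaline, had 305, 279 and 380 normalized counts in p27-positive libraries, against 59.6, 52.3 and 68.5 in p27-negative libraries. It was 5.26-fold higher (log2 fold change 2.39 ± 0.22, adjusted p = 1.7e-12), the largest change among receptors averaging 50 or more normalized counts. ADRA1B (chr5:159865080-159973012), a Gq-coupled alpha-1 receptor, had 82.5, 132 and 103 in p27-positive libraries, against 210, 146 and 199 in p27-negative libraries (-0.80 ± 0.22, adjusted p = 0.0025). The highest p27-positive library of ADRA1B lay just under the lowest p27-negative one. ADRA2C, with 48 reads in p27-positive cells, against 37 in p27-negative cells, was not called (0.10 ± 0.75, adjusted p = 0.92).

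Adenosine and nucleotide receptors sense purines outside the cell. ADORA1, the Gi-coupled A1 receptor, had 945.5, 928 and 985 normalized counts in p27-positive libraries, against 1133, 1230 and 1332 in p27-negative libraries (-0.37 ± 0.08, adjusted p = 0.00013). All p27-positive libraries of ADORA1 lay below the p27-negative ones. The Gs-coupled ADORA2B was not called (0.12 ± 0.21, adjusted p = 0.66). P2RY2, a Gq-coupled receptor for ATP and UTP, had 114, 99.8 and 143 in p27-positive libraries, against 48.0, 64.5 and 70.8 in p27-negative libraries (0.95 ± 0.28, adjusted p = 0.0039), and quantile normalization ended the call (adjusted p = 0.10). P2RY11, an ATP receptor, had 164, 161 and 118 in p27-positive libraries, against 97.9, 108 and 116 in p27-negative libraries (0.44 ± 0.23, adjusted p = 0.097). It was not called although its groups did not overlap, and 3 other scalings called it, at 0.56, 0.57 and 0.56. P2RY11 overlaps PPAN on the same strand, which was not called (-0.31, adjusted p = 0.075).

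Protease-activated receptors are switched on by thrombin or trypsin-like proteases that cut their outer end. Of 3 tested ones 2 rose (66.7%) and none fell, against 25.5% and 27.1% of all tested genes. F2RL2 (PAR3; chr5:76615482-76623413), a thrombin receptor and a cofactor of other receptors of its family, had 296, 294.5 and 299 normalized counts in p27-positive libraries, against 159, 166 and 114 in p27-negative libraries (1.03 ± 0.18, adjusted p = 4.5e-06). The p27-positive libraries were nearly identical. F2RL2 lies on the strand opposite IQGAP2, which fell (-0.35, adjusted p = 3.4e-09). F2RL1 (PAR2), the trypsin receptor, had 686, 761 and 743 in p27-positive libraries, against 575, 681 and 511 in p27-negative libraries (0.32 ± 0.10, adjusted p = 0.0093). Its groups came close without overlap, and the call on F2RL1 was lost without p27-positive replicate 2 (adjusted p = 0.051) and without p27-negative replicate 3 (0.22 on the log2 scale, adjusted p = 0.084). F2R (PAR1), the main thrombin receptor, had the highest level of the 3, at 16.0 FPKM in p27-positive and 14.0 FPKM in p27-negative cells. It had 1454, 1517 and 1472 in p27-positive libraries, against 1433, 1290 and 1509 in p27-negative libraries and was not called (0.07 ± 0.07, adjusted p = 0.41), while 4 other scalings called F2R higher, at 0.18 to 0.20.

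One prostaglandin E2 receptor, PTGER4, and the oxytocin receptor were called lower, while PTGER1 and PTGER2 were too sparse for the test and had more reads in p27-positive cells. PTGER1 had 20 reads in p27-positive cells, against 5 in p27-negative cells, with overlapping groups. PTGER4 (EP4), which couples to Gs, had 494, 587 and 581 normalized counts in p27-positive libraries, against 780, 774.5 and 749 in p27-negative libraries (-0.47 ± 0.10, adjusted p = 8.4e-05). The p27-negative libraries were alike and all above. PTGER4 lies opposite TTC33, which rose (0.30, adjusted p = 0.0077). OXTR (chr3:8750381-8769628), the Gq-coupled oxytocin receptor known from myoepithelium and uterus, had 19.1, 0 and 6.08 in p27-positive libraries, against 24.0, 31.2 and 18.3 in p27-negative libraries. It had the lowest log2 fold change of the receptors (-2.26 ± 0.87, adjusted p = 0.027) but its groups overlapped, with 26 reads in p27-positive cells, against 71 in p27-negative cells. OXTR averaged 8.40 normalized counts in p27-positive cells, so it reached the minimum of 10 through its p27-negative level alone. Without p27-positive replicate 2 the OXTR change was -1.06 (adjusted p = 0.22), the call was also lost without p27-negative replicate 1 (0.062) or 2 (0.10), and edgeR and DESeq2 did not call it (adjusted p = 0.095 and 0.11).

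By level per length, the 8 highest receptors were GPRC5A, ADGRL2, GPR107, GPR161, F2R, ADGRL1, ADGRA3 and GPR108. ADGRL2 averaged 29.1 ± 0.46 FPKM in p27-positive and 25.3 ± 0.44 FPKM in p27-negative cells, and GPR107 averaged 20.8 ± 0.37 FPKM in p27-positive and 13.2 ± 0.24 FPKM in p27-negative cells (SD, n = 3 each). The next levels were 15.1 FPKM in p27-positive and 12.6 FPKM in p27-negative cells for ADGRL1, and 14.1 FPKM in p27-positive and 9.17 FPKM in p27-negative cells for GPR108. ADGRA3 had 13.0 FPKM in p27-positive and 11.2 FPKM in p27-negative cells. A set of 20 uncalled receptors, some of them already named above, had log2 fold changes of -0.25 to 1.54. Of these, 15 were positive and 5 negative, with a lowest adjusted p of 0.14. The highest of these, at 1.54 ± 1.02, was GPR143, the receptor for L-DOPA in pigment cells, on 55 reads in p27-positive cells and 20 reads in p27-negative cells. With single libraries left out GPR143 was lowest, at 0.41, when p27-negative replicate 2 was dropped and highest, at 2.46, when p27-negative replicate 3 was dropped.

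The 27 receptors below the minimum had 11 to 57 reads over all 6 libraries, and their reads were recovered from the normalized counts. All p27-positive libraries lay above all p27-negative ones in 4 of them, against 11.4% of the 6844 genes below the minimum, and all p27-negative libraries lay above in 1, against 3.45%. The other 22 overlapped. Without the minimum limma called 1 of the 27 higher, against 4.43% of the 6844 genes, and 0 lower, against 0.862%. edgeR called 1 higher and 0 lower, and DESeq2 called 2 higher and 0 lower.

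S1PR4 (chr19:3172346-3180332), a sphingosine-1-phosphate receptor best known in lymphocytes, was read in p27-positive cells alone. It had 15, 9 and 16 reads in p27-positive libraries, against 0, 0 and 0 in p27-negative libraries. With a floor of 3 reads over the p27-negative group this is at least 12.1-fold higher, and the exact 95% counting interval of the ratio has a smaller lower limit of 9.41. The adjusted p was 0.0029 with limma, 0.0021 with edgeR and 0.00045 with DESeq2 without the minimum. An exact permutation test of the libraries gave p = 0.1, two-sided, the smallest that 3 against 3 allows. Of the 2 leukocyte markers tested, ITGAM was called higher, with 110, 60 and 118 reads in p27-positive libraries, against 54, 21 and 55 reads in p27-negative libraries (1.05 ± 0.36, adjusted p = 0.013). The other, PTPRC, was not called (-0.54 ± 0.58, adjusted p = 0.47) and had 17, 19 and 14 reads in p27-positive libraries, against 18, 20 and 30 reads in p27-negative libraries.

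Other sparse receptors were read more in p27-positive cells without passing most tests. GPRC5D, a surface antigen of plasma cells, had 17, 14 and 4 reads in p27-positive libraries, against 3, 1 and 0 in p27-negative libraries, a ratio of 7.95 after scaling (exact 95% counting interval 2.84 to 30.8). DESeq2 alone called it (adjusted p = 0.042, against 0.054 with limma and 0.10 with edgeR). GPRC5C, its relative, had 9, 14 and 22 reads in p27-positive libraries, against 0, 8 and 3 in p27-negative libraries, and all 3 tools left it uncalled. PTGER2, the Gs-coupled EP2 receptor, had 8, 12 and 4 reads in p27-positive libraries, against 0, 3 and 0 in p27-negative libraries (ratio 7.27, interval 2.21 to 37.7). In GPRC5D, GPRC5C and PTGER2, as in S1PR4, the groups did not overlap.

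The remaining sparse receptors overlapped between groups or rested on few libraries. P2RY6, the UDP receptor, had 0, 25 and 22 reads in p27-positive libraries, against 3, 3 and 1 in p27-negative libraries. GPR82 had 14, 3 and 2 reads in p27-positive libraries, against 2, 2 and 0 in p27-negative libraries. P2RY1, the ADP receptor, had 0, 5 and 7 reads in p27-positive libraries, against 0, 0 and 1 in p27-negative libraries (ratio 10.9, interval 1.61 to 466.3). At least 1 library in each of these p27-positive groups was as low as a p27-negative one. ADGRE2, an adhesion receptor of myeloid cells, had 0, 7 and 3 reads in p27-positive libraries, against 0, 0 and 1 in p27-negative libraries. EDNRB, an endothelin receptor, had 0, 8 and 4 reads in p27-positive libraries, ADGRD2 had 6, 11 and 0, and ADGRB3 had 0, 12 and 0, against 0 reads in every p27-negative library for these 3 genes. All 12 reads of ADGRB3 thus came from a single library, p27-positive replicate 2.

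In the opposite direction, GPR34, a lysophosphatidylserine receptor of microglia, had 4, 5 and 6 reads in p27-positive libraries, against 16, 7 and 6 in p27-negative libraries. After scaling, its p27-negative libraries all lay above the p27-positive ones, by a ratio of 2.13 (exact 95% counting interval 1.10 to 4.27). GPR19, an orphan that overlaps the p27 gene CDKN1B on the opposite strand, had 4, 17 and 6 reads in p27-positive libraries, against 10, 3 and 0 in p27-negative libraries. CDKN1B itself averaged 1295 ± 75.4 normalized counts in p27-positive cells and 1659 ± 153 in p27-negative cells (SD, n = 3 each; log2 fold change -0.35, adjusted p = 6.8e-05). The sort was on the reporter, so this transcript does not check the labels.

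**Figure D4:**
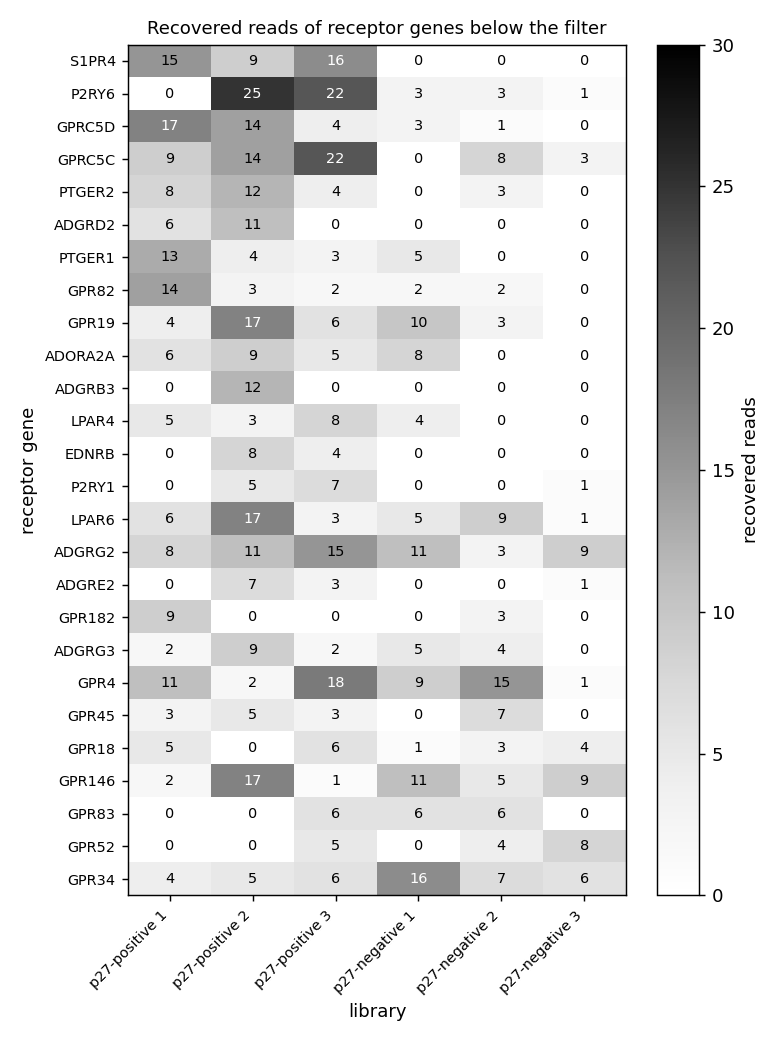
Recovered reads of 26 receptor genes below the minimum, one row per gene and one column per library, with p27-positive libraries on the left, darker for more reads. S1PR4 has 15, 9 and 16 reads in p27-positive libraries and none in p27-negative libraries.

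The genes that carry the receptors' signal were read from the same fit, in lists by role. The shares to set beside each count are those over all tested genes, 25.5% called higher and 27.1% lower. For the G protein alpha subunits, 2 of 10 tested genes rose and 5 fell, although scaling to the library total gave 3 and 3 and quantile normalization 2 and 2. GNAI2, a Gi subunit, had 2934, 2903 and 3249 normalized counts in p27-positive libraries, against 2005, 2101 and 2076 in p27-negative libraries (0.55 ± 0.06, adjusted p = 5.4e-11). Its relative GNAI3 fell by 0.40 on the log2 scale, the Gq subunit gene GNA11 by 0.35, and GNAQ, GNA12 and GNA13 were also lower. GNAS, which encodes Gs, rose by 0.14 ± 0.03. For beta and gamma subunits, 1 of 11 rose (GNG7) and 5 fell, with GNG11 at -0.82, GNB4 at -0.73 and both GNB1 and GNB2 at -0.37, and GNB5 was the remaining one.

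Shut-off genes were called in both directions, as were all tested genes (25.5% higher and 27.1% lower). Of 11 tested RGS genes 3 rose and 3 fell, and quantile normalization gave 2 and 5. RGS5, a Gi and Gq regulator of pericytes and smooth muscle, had 167, 155 and 161.5 normalized counts in p27-positive libraries, against 16.0, 10.02 and 26.3 in p27-negative libraries. It was 9.42-fold higher (log2 fold change 3.24 ± 0.37, adjusted p = 6.7e-10), with no overlap. RGS9 rose by 0.63, RGS3 fell by 0.53 and RGS19 fell by 0.45, and RGS14 and RGS12 were the other 2 called, higher and lower. Of 7 receptor kinases and arrestins 1 rose and 2 fell. GRK6 had 1619, 1851 and 1755 in p27-positive libraries, against 3430, 3137 and 3392 in p27-negative libraries (-0.93 ± 0.06, adjusted p = 5.2e-17). GRK2 fell by 0.31, and the arrestin ARRB1 rose by 0.14 with an adjusted p of 0.030 that 4 left-out libraries in turn moved past the threshold (0.058 to 0.16).

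The cyclic AMP branch held calls in both directions, as did all tested genes (25.5% higher and 27.1% lower). Of 4 tested adenylyl cyclases 2 rose and 1 fell: ADCY6 and ADCY9 at 0.57 and 0.37, and ADCY3 at -0.74. Of 6 phosphodiesterases 1 rose and 1 fell: PDE3A, which breaks down cyclic AMP, had 2543, 2403 and 2550 normalized counts in p27-positive libraries, against 1178, 1326 and 1151 in p27-negative libraries (1.04 ± 0.07, adjusted p = 5.3e-17), and PDE7A was at -0.36. Of 8 genes of protein kinase A and EPAC 1 rose and 2 fell, and 2 and 2 with quantile normalization or the library total. The catalytic subunit gene PRKACB was at -0.54, PRKAR2A at -0.37 and PRKAR1A at 0.10, and the groups of PRKAR1A overlapped. Without p27-positive replicate 1 PRKAR1A was at 0.06 (adjusted p = 0.24), and its call was also lost without p27-negative replicate 1 (0.073) or 3 (0.16).

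Of 11 CREB factors and response genes 2 rose and 4 fell, against 25.5% and 27.1% of all tested genes. With the library total 2 rose and 2 fell. ATF1 fell by 0.61 and CRTC3 by 0.37, while NR4A2, an immediate target of cyclic AMP, had 80.5, 135 and 86.0 normalized counts in p27-positive libraries, against 31.1, 27.8 and 24.0 in p27-negative libraries (1.79 ± 0.35, adjusted p = 3.9e-05). Its relatives NR4A1 (-0.59, adjusted p = 0.012) and NR4A3 were lower, so the list did not move as one, and CRTC1 was higher. The call on NR4A1 was lost without p27-positive replicate 2 (adjusted p = 0.093), in the FPKM table (0.19), with the library total (0.05) and without the trended prior (0.059).

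Enzymes and precursors that make or remove receptor ligands were called most often, with 7 of 12 tested genes higher and 4 lower, against 25.5% and 27.1% of all tested genes. PSAP, whose product is cut to saposins and is a proposed ligand of GPR37, averaged 35394 ± 316 normalized counts in p27-positive cells and 15974 ± 199 in p27-negative cells (SD, n = 3 each; 1.15 ± 0.03, adjusted p = 3.4e-31). EDN1, the precursor of endothelin, averaged 2265 ± 52.3 in p27-positive and 5145 ± 97.8 in p27-negative cells (-1.18 ± 0.05, adjusted p = 4.2e-23), while its receptor gene EDNRB had the few reads given above. The prostaglandin E synthase genes differed, with PTGES at 0.56 and PTGES3, also a chaperone partner of HSP90, at -0.84. PLPP1, PLPP2 and PLPP3 were also higher, PLPP1 at 0.69 and PLPP3 at 1.17, and encode phosphatases that break down lysophosphatidic acid and sphingosine-1-phosphate rather than make them. The sphingosine kinase genes SPHK2 and SPHK1 were at 0.52 and -0.31.

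**Figure D5:**
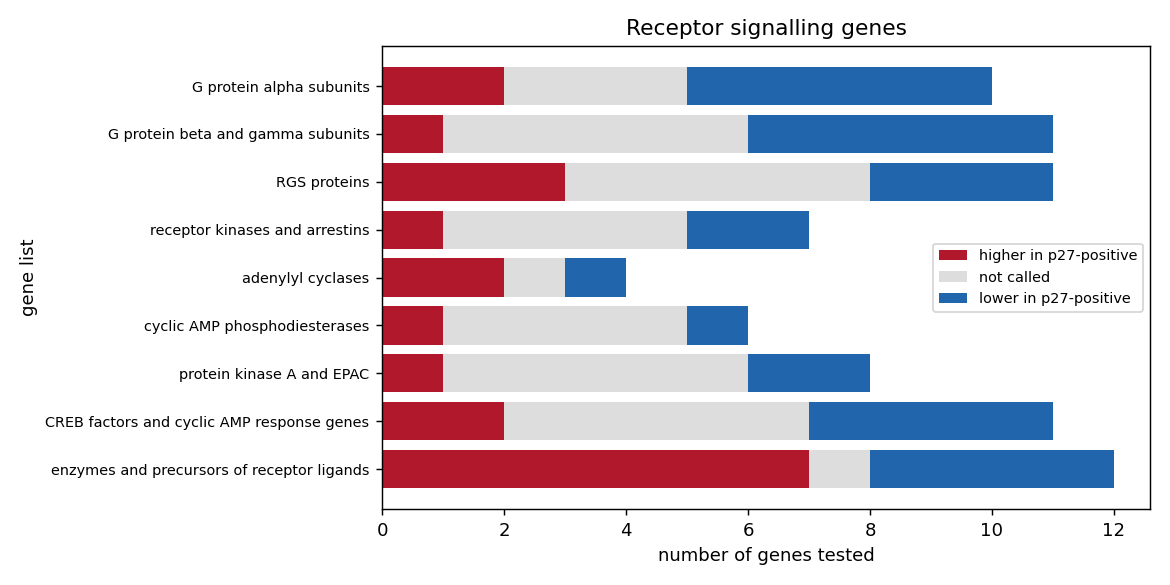
Number of tested genes called higher (red), not called (grey) and lower (blue) in p27-positive cells for 9 lists of receptor signalling genes. Of the alpha subunits 2 of 10 are higher and 5 lower, and of ligand enzymes and precursors 7 of 12 are higher and 4 lower. Over all tested genes 25.5% are higher and 27.1% lower.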

How the data were processed

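Poly(A) RNA of 3 p27-positive and 3 p27-negative CAL-51 libraries was measured, from a stranded kit per the labels. One deposited table gives a normalized signal, each gene's reads over the DESeq2 size factor of the library, per the file headers. The other deposited table gives FPKM, again per the file headers. The submitters' processing notes name STAR, featureCounts and DESeq2 with build hg38. The sources used here do not give versions, annotation release or strand setting, so overlapping and antisense genes are uncertain. Gene positions are those of the files.

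Whole reads were recovered by dividing each value by the smallest positive value of its library (100% whole within 1e-06). No listed gene had under 10 reads in total. Every receptor p-value is adjusted over all genes tested and comes from limma 3.58.1 in R 4.3.3, two-sided, with a trended prior (34.6 degrees of freedom), on log2(normalized count + 1) for genes with a mean of at least 10 over 6 libraries. The FPKM table was tested as log2(FPKM + 0.1). On recovered reads edgeR 4.0.16 called 3983 genes higher and 4307 lower, and DESeq2 1.42.0 called 3974 and 4200, against 4067 and 4318 with limma. All tools were run on simulated data with few changed genes and the same spread beyond counting error for every gene. These data differ from that setting, so the simulation gives no error rates for them. Genes below the minimum were compared by reads, with exact 95% intervals and floors of 3 counts that cover counting error only, and by fits without the minimum, of which those by edgeR and DESeq2 were chosen after seeing the data.

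The receptors, the gene lists and the tests were chosen with earlier results of these data known. Values in every library are given for called receptors with the 12 largest increases and the 8 largest decreases among those averaging 50 or more normalized counts (12 and 6 met this), the 8 highest by FPKM, and receptors below the minimum with at least 10 reads in a group and a level at least 4-fold that of the other. Of each signalling list up to 4 genes with the smallest p were named. All other receptors and list genes named were chosen after their values were seen.
Results for some genes are left out of this text and its plots.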

Additional observations from a re-analysis of the deposited data

How the results depend on the processing

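The 31 receptor calls were recomputed under 18 alternatives, wherever the receptor could be tested. Of these, 20 calls held in every alternative, 11 were lost in at least 1, and none changed direction; of 24 uncalled receptors, 7 were called and 15 changed sign under some alternative. The numbers of receptors called higher and lower were 22 and 7 with quantile normalization, 28 and 6 with upper-quartile rescaling or the library total, 20 and 5 of 38 tested in the FPKM table, 18 and 5 without the trended prior, 19 and 6 of 40 at a minimum of 50, and 20 to 24 and 5 to 7 with single libraries left out. The counts over all 15950 genes moved too, from 4067 higher and 4318 lower to 3850 and 4008 with quantile normalization. Upper-quartile rescaling gave 5142 and 3267, the library total 5343 and 3114, and no trended prior 3340 and 3579. The FPKM table gave 4145 higher of 14195 genes, and a minimum of 50 gave 3480 and 4311 of 12113. Single libraries left out gave 3496 to 3932 and 3989 to 4142. The receptors' median log2 fold change of 0.34 was 0.46 with no expression filter, 0.28 at a minimum of 50, 0.23 with quantile normalization, 0.45 with upper-quartile rescaling, 0.46 with the library total, and 0.31 to 0.38 with single libraries left out. The last 2 scalings moved the median of all tested genes by 0.11 and 0.13, and differences that small depend on which scaling is used; the cause of the other shifts was not tested. With FPKM values, 2832 genes were called lower, against 4318, among fewer genes tested. No effect shared by same-numbered libraries was detected, as their deviations correlated at 0.0090, -0.00051 and 0.011. This cannot show whether the libraries were paired, since counting noise can hide a shared effect. The replicate block gave 24 receptors higher and 7 lower, and 4065 and 4330 of all genes. Without the trended prior ADGRB2, ADGRL1, ADGRL2, F2RL1, GPR158, GPR160, GPR180 and OXTR were not called, and without the expression filter ADGRL1 and ADGRL2 were not. Of the signalling genes with the smallest p in the lists given above, ARRB1, GNAS, NR4A1, PDE7A and PRKAR1A lost their call under some alternative. Depth limits the receptors with few reads, where a difference was not detectable unless large.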
